A study of Homo sapiens with 16 samples.

Results

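Receptor tyrosine kinases are cell-surface proteins that bind a growth factor outside the cell and phosphorylate tyrosines inside it. The 10 genes described here, PDGFRA, PDGFRB, KIT, ALK, RET, MET, FGFR1, EGFR, ERBB2 and IGF1R, were taken by name from a table of 23459 genes, and all 10 were present. They were followed in 16 libraries of rRNA-depleted RNA from Be(2)-C and IMR5-75, established human neuroblastoma cell lines that carry amplified MYCN. Each line was given 72 h of 1 µM DAC, 96 h of 1 µM EPZ-6438 (EPZ from here on), both drugs (DAC+EPZ), or the solvent DMSO, with 2 libraries in each of the 8 groups. DAC, a name left unexplained by the labels, is the usual short form of decitabine, a nucleoside analogue that lowers DNA methylation by trapping the enzymes that write it. EPZ-6438 inhibits EZH2, the methyltransferase of Polycomb repressive complex 2, which marks repressed genes on histone H3. Each line is 1 cell line, so no group stands for neuroblastoma in general.

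Ligand binding brings 2 receptor molecules together, their kinase domains phosphorylate each other, and adaptor proteins then switch on the RAS, RAF, MEK and ERK cascade and the PI3-kinase and AKT pathway. ERK in turn raises transcription of its own brakes, such as the DUSP phosphatases and the SPRY proteins. In neuroblastoma, a tumour of the sympathetic nervous system, ALK is the receptor most often activated by mutation, and RET, the receptor of GDNF-family ligands, belongs to the normal programme of autonomic neurons. PDGFRA is typical of mesenchymal cells and of neural crest derivatives, and MET, the receptor of hepatocyte growth factor, is typical of epithelial and migrating cells.

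Promoters are shown for the 4 members with a called change under a single drug, because both drugs act on chromatin and DNA methylation sits on the CG dinucleotide. The 4 sequences below are the 250 bases before the 5′-most RefSeq start, read 5′ to 3′ on the gene's strand from the RefSeq promoter table of GRCh38.p14, with every CG in capitals. They lie at chr4:54229043-54229292 (plus strand) for PDGFRA, chr7:116671946-116672195 (plus strand) for MET, chr2:29921587-29921836 (minus strand) for ALK and chr10:43076819-43077068 (plus strand) for RET.
PDGFRA: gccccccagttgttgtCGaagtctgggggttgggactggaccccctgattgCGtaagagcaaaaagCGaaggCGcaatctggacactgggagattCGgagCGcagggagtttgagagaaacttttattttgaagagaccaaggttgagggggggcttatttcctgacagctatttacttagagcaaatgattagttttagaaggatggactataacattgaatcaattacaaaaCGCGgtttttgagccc
MET: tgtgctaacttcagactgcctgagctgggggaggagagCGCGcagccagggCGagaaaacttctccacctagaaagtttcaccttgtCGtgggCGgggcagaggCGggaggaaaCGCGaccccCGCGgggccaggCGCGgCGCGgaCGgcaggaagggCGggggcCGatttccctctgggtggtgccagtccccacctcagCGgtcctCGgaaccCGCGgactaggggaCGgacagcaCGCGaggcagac
ALK: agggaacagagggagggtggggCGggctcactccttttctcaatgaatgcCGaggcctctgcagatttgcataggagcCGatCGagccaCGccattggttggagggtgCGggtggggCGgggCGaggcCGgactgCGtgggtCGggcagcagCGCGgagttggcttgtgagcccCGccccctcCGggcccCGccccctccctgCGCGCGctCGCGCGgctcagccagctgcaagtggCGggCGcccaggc
RET: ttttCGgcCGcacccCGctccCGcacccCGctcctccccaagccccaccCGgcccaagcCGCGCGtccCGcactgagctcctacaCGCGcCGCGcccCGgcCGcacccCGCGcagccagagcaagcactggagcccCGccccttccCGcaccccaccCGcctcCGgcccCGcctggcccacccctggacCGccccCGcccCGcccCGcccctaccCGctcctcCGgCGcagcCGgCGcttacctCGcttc
CG, which reads the same on both strands, occurred 8 times before PDGFRA, 24 times before MET, 24 times before ALK and 33 times before RET. Over 35114 promoters of that length the median was 11 (quartiles 3 and 23), and 93.9% held at least 1. PDGFRB, with 9, was the other member below the median, while EGFR had 25, ERBB2 23, KIT 34 and IGF1R 48. At least as many as in PDGFRA were found in 56.3% of promoters, as in MET or ALK in 23.7%, as in RET in 8.14% and as in IGF1R in 0.262%. PDGFRA, ALK, RET and EGFR have 2 starts in that table, and nothing in these libraries measured methylation. No promoter of FGFR1 is shown.

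Levels are CPM, that is, counts scaled to the library's size after TMM correction, and 3 counts corresponded to 0.206 to 0.315 CPM. The libraries held between 9539557 and 14032155 counts. Changes are log2 ± SE from edgeR's quasi-likelihood test on all 16 libraries. Calls were made where the p adjusted by Benjamini and Hochberg's method over the 15967 genes past a filter on low counts was under 0.05. All 10 members passed it, but MET did so only through Be(2)-C DAC+EPZ, so MET was bound to differ between some groups. KIT reached the filter's level in 11 libraries, and in both libraries of a group only in IMR5-75. No label says that replicates were separate cultures, so the p-values speak only of library-to-library spread, possibly a technical one. Treatments within a line share their DMSO libraries. In RNA from whole cultures, fewer cells that use a gene and less of its RNA per cell cannot be told apart. Of 12 noradrenergic neuroblastoma markers, among them HAND2, GATA3, TH and DBH, all 12 had counts in every group. In Be(2)-C they summed to 8571 to 8618 CPM after DAC, 8396 to 10730 CPM after EPZ and 8896 to 9685 CPM after DAC+EPZ. In DMSO the sum was 10280 to 10430 CPM. In IMR5-75 it was 2926 to 3534, 2806 to 3022 and 3046 to 3147 CPM, against 3286 to 3716 CPM in DMSO. Only Be(2)-C EPZ and IMR5-75 DAC overlapped the DMSO range of their line. The part of these markers in the receptor results was not tested.

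The solvent-treated lines carried different sets of receptors. On a scale of CPM per kb of annotated exon (GENCODE v29 lengths, GRCh38), RET led in Be(2)-C at 20.0 ± 0.235 (SD, n = 2). It was followed by PDGFRB at 8.36 ± 0.0771, FGFR1 at 8.12 ± 1.37, IGF1R at 7.67 ± 0.429, ALK at 7.60 ± 0.178 and EGFR at 6.39 ± 0.0760. Among these the ranges of FGFR1 overlapped those of PDGFRB, IGF1R and ALK, and those of IGF1R and ALK overlapped too, so their order is not settled. ERBB2 at 0.918 ± 0.128, KIT at 0.176 ± 0.0514, PDGFRA at 0.0870 ± 0.00900 and MET at 0.0136 ± 0.0192 came last. In IMR5-75 PDGFRA led at 18.0 ± 0.383 CPM per kb, ahead of FGFR1 at 9.40 ± 0.390, ALK at 7.58 ± 1.04, IGF1R at 5.12 ± 0.214 and KIT at 4.53 ± 0.146. PDGFRB at 1.01 ± 0.0519 and EGFR at 0.942 ± 0.0633 had overlapping ranges, and RET at 0.257 ± 0.123, ERBB2 at 0.131 ± 0.0172 and MET at 0.0173 ± 0.00669 were lowest.

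Between the solvent-treated lines 7 of 10 members were called, against 63.2% of all tested genes, so the count itself is close to the background. Of these 5 were higher in Be(2)-C (31.2% of all tested genes) and 2 lower (32%). The sizes were large. RET was 76.1-fold higher in Be(2)-C than in IMR5-75 (log2 6.25 ± 0.26, edgeR adjusted p = 9.49e-15), PDGFRB 8.27-fold higher (3.05 ± 0.18), ERBB2 6.89-fold higher (2.78 ± 0.37), EGFR 6.78-fold higher (2.76 ± 0.18) and IGF1R 1.5-fold higher (0.58 ± 0.16). PDGFRA was lower in Be(2)-C by 7.67 ± 0.21 on the log2 scale (adjusted p = 1.40e-17) and KIT was lower by 4.67 ± 0.26. ALK had almost the same level in both lines, with a difference of 0.01 and a 95% interval from -0.31 to 0.32, and FGFR1 differed by -0.21 (interval -0.48 to 0.06). MET rested on 2 counts in Be(2)-C and 3 in IMR5-75.

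**Figure D1:**
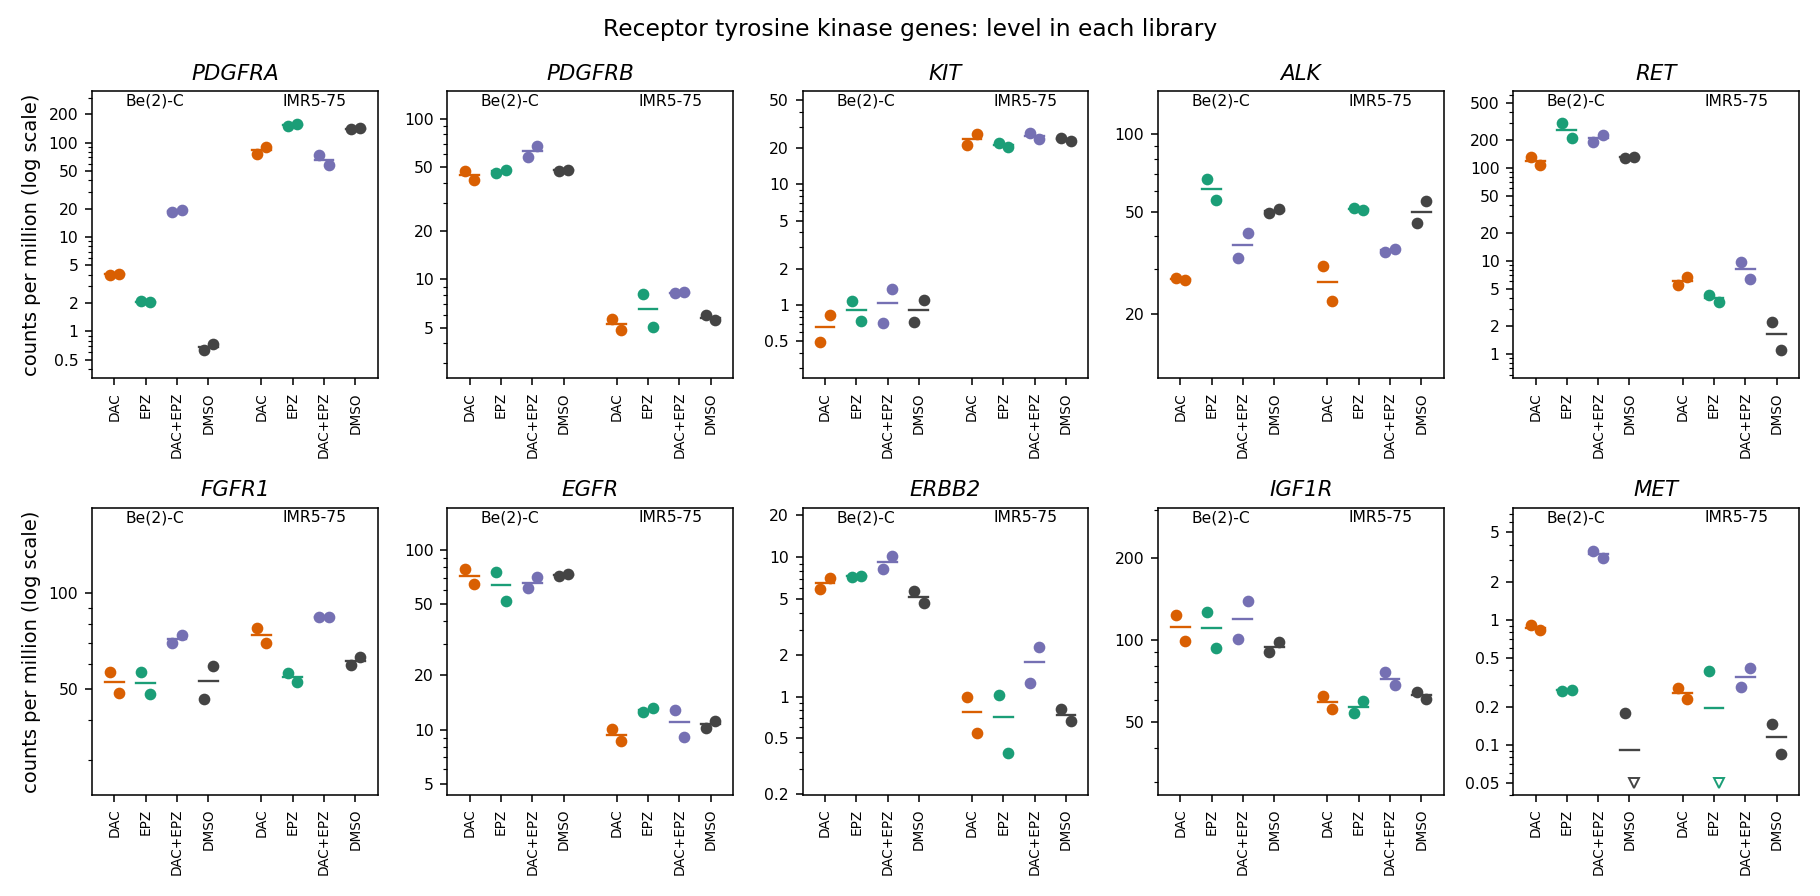
Level of each receptor gene in CPM on a log axis, with 1 point per library, a bar at the group mean and the treated groups left of DMSO in each line; open triangles at 0.05 mark libraries with 0 counts. PDGFRA reaches 18.4 and 19.6 CPM under both drugs in Be(2)-C, against 0.634 and 0.735 CPM in DMSO, while in IMR5-75 it is lower after DAC than in DMSO.

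Counts of called members are given with the share of all tested genes called in the same way. After DAC, Be(2)-C had 3 called members (6.7% of all tested genes), 2 higher (3.73%) and 1 lower (2.97%). EPZ gave 2 (10.2%), both higher (5.35%) and 0 lower (4.85%), and DAC+EPZ gave 6 (23.7%), 5 higher (13.2%) and 1 lower (10.4%). IMR5-75 had 3 after DAC (33.7%), 1 higher (19.9%) and 2 lower (13.8%), 0 after EPZ (1.98%; 1.63% higher and 0.344% lower), and 6 after DAC+EPZ (46.2%), 4 higher (25.7%) and 2 lower (20.4%). Single libraries moved these counts: in Be(2)-C the EPZ count was 1 without DMSO 1 and the DAC+EPZ count was 2 without DMSO 1 and 3 without DAC+EPZ 2, and in IMR5-75 the EPZ count was 1 without DMSO 1 and the DAC+EPZ count was 3 without DMSO 2 or DAC+EPZ 2. The DAC+EPZ count of Be(2)-C includes MET, which passed the filter on low counts only through that group. A count over 10 genes says little against such backgrounds, and the results are therefore given gene by gene. Beside the 0 under EPZ in IMR5-75, 1 member had an unadjusted p under 0.05 and 1 was called by DESeq2, in both cases RET.

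The median change of the members was -0.01 after DAC, 0.26 after EPZ and 0.42 after DAC+EPZ in Be(2)-C, where the medians of all tested genes were 0.02, 0.02 and 0.05. In IMR5-75 it was -0.04, 0.09 and 0.33, with 0.01, 0.01 and 0.03 for all tested genes.

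PDGFRA, the alpha receptor of platelet-derived growth factors, rose in Be(2)-C under every treatment and fell in IMR5-75 under DAC. Be(2)-C libraries had 3.95 and 4.08 CPM after DAC, 2.09 and 2.04 CPM after EPZ, and 18.4 and 19.6 CPM after DAC+EPZ, against 0.634 and 0.735 CPM in DMSO. These are 48 and 44, 23 and 22, and 207 and 187 counts, against 7 and 8 in DMSO. No treated library overlapped a DMSO library, and the 4 groups did not overlap each other. The changes were 2.53 ± 0.31 after DAC (edgeR adjusted p = 2.17e-05), 1.58 ± 0.36 after EPZ (0.00658) and 4.78 ± 0.24 after DAC+EPZ (3.52e-11), the last a 27.4-fold rise. Without DMSO 1 the EPZ change was 1.47 with an adjusted p of 0.0863, and no other alternative ended a PDGFRA call against DMSO.

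Both drugs together gave more PDGFRA RNA in Be(2)-C than either alone. The rise was 2.24 ± 0.17 over DAC (adjusted p = 1.96e-07) and 3.198 ± 0.20 over EPZ (adjusted p = 1.66e-09), in edgeR's test. Whether the combined change exceeded the sum of the single changes on the log2 scale was tested as an interaction, which was 0.66 ± 0.44 with a 95% interval from -0.25 to 1.58 and an adjusted p of 0.781. Of the 10 members 0 were called for this interaction in Be(2)-C (0.257% of all tested genes), with 2 at an unadjusted p under 0.05 and 0 in DESeq2. Against DAC alone 4 members were called in Be(2)-C (5.44% of all tested genes) and against EPZ alone 3 (4.21%). The count against DAC fell to 2, 1, 2 and 1 without DAC 1, DAC 2, DAC+EPZ 1 and DAC+EPZ 2.

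In IMR5-75, where PDGFRA was the most abundant member per length in DMSO, the direction was the other one. FGFR1 had the highest mean per length after DAC (11.3 ± 0.846 against 10.54 ± 1.225 CPM per kb for PDGFRA) and after both drugs (12.9 against 8.43). After DAC the ranges of FGFR1 and PDGFRA overlapped, so their order there is not settled. PDGFRA had 76.1 and 89.8 CPM after DAC, 151.5 and 159.3 CPM after EPZ and 74.2 and 58.5 CPM after DAC+EPZ, against 139.4 and 143.7 CPM in DMSO. Every library with DAC was below every library without it. PDGFRA fell by 0.77 ± 0.12 after DAC (edgeR adjusted p = 4.45e-05) and by 1.09 ± 0.12 after DAC+EPZ (3.25e-07), while EPZ alone gave 0.13 ± 0.12 (interval -0.11 to 0.38). The difference between the lines was itself tested and was 3.30 ± 0.33 for DAC (adjusted p = 5.66e-07) and 5.87 ± 0.27 for DAC+EPZ (6.17e-12), Be(2)-C minus IMR5-75. For EPZ it was 1.44 ± 0.38 with an adjusted p of 0.0679. The most PDGFRA RNA seen in Be(2)-C, 19.6 CPM, was still below the lowest value in IMR5-75, 58.5 CPM.

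Mesenchymal-type markers had a higher summed level in every treated Be(2)-C library than in DMSO, and their part in the PDGFRA result was not tested. All 12 (among them FN1, VIM, PRRX1, SNAI2 and YAP1) had counts in every group. Their summed level in Be(2)-C was 675 to 681 CPM after DAC, 661 to 717 CPM after EPZ and 962 to 982 CPM after DAC+EPZ, against 545 to 575 CPM in DMSO. In IMR5-75, where PDGFRA fell, it was 1087 to 1229 CPM after DAC, 1079 to 1110 CPM after EPZ and 1319 to 1382 CPM after DAC+EPZ, against 988 to 1107 CPM in DMSO. There the ranges after DAC and after EPZ overlapped that of DMSO. Of 11 tested markers, 4 were called higher and 0 lower after DAC+EPZ in Be(2)-C (background 13.2% and 10.4%), and 9 and 1 in IMR5-75 (25.7% and 20.4%). After DAC 2 were higher in Be(2)-C (3.73%) and 6 in IMR5-75 (19.9%), and after EPZ 2 (5.35%) and 1 (1.63%). PDGFRA shares annotated exon sequence with a same-strand gene model, AC058822.1, over 1533 bases in GENCODE v29. That model has no row among the deposited counts, whose annotation is not given, so how reads there were counted is not known.

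PDGFRB, the beta receptor, was called against DMSO under both drugs in IMR5-75, a call that ended without single libraries. The difference of that response between lines was not called (-0.13, interval -0.64 to 0.38). Be(2)-C libraries had 47.6 and 41.4 CPM after DAC, 46.3 and 47.8 CPM after EPZ and 58.0 and 67.3 CPM after DAC+EPZ, against 47.5 and 48.1 CPM in DMSO. Only the libraries with both drugs lay above every DMSO library, and the change of 0.39 ± 0.15 had an adjusted p of 0.0603, which was 0.0340 and so called with Be(2)-C fitted alone. In IMR5-75 it had 8.22 and 8.32 CPM after DAC+EPZ, against 5.97 and 5.55 CPM in DMSO, and rose by 0.52 ± 0.20 (edgeR adjusted p = 0.0357). That call did not hold without any single 1 of the 4 libraries compared (0.46 to 0.58, adjusted p 0.0640 to 0.151) or with IMR5-75 fitted alone (0.51, adjusted p = 0.0685). KIT, the stem cell factor receptor, was not called under any treatment. It had 20.4 to 26.6 CPM in all 8 IMR5-75 libraries and 0.494 to 1.36 CPM in all 8 Be(2)-C libraries, and its 95% intervals against DMSO ran from -0.50 to 0.44 in IMR5-75 and from -1.46 to 1.07 in Be(2)-C.

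ALK, the receptor of the ALKAL ligands, fell in both lines after DAC. Its level in Be(2)-C was 27.6 and 27.1 CPM after DAC, 66.8 and 55.5 CPM after EPZ and 33.0 and 41.3 CPM after DAC+EPZ, against 49.3 and 51.0 CPM in DMSO. In IMR5-75 it had 30.8 and 22.4 CPM after DAC, 51.8 and 50.8 CPM after EPZ and 34.9 and 35.9 CPM after DAC+EPZ, against 45.1 and 54.8 CPM in DMSO. In both lines every library with DAC, alone or combined, lay below every library without it.

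ALK fell by 0.87 ± 0.16 after DAC in Be(2)-C (edgeR adjusted p = 0.00135) and by 0.91 ± 0.15 in IMR5-75 (0.000106), and the lines differed by 0.03 with a 95% interval from -0.42 to 0.49. Under both drugs the fall was 0.43 ± 0.15 in Be(2)-C (adjusted p = 0.0443) and 0.50 ± 0.15 in IMR5-75 (0.00998). Both drugs against DAC alone gave 0.44 ± 0.16 in Be(2)-C and 0.41 ± 0.15 in IMR5-75, which were not called (adjusted p 0.121 and 0.205). The DAC calls held under every alternative. In Be(2)-C the call under both drugs ended without DMSO 1 (-0.47), DMSO 2 (-0.41) or DAC+EPZ 1 (-0.28), and in IMR5-75 without DMSO 2 (-0.36), DAC+EPZ 1 (-0.42) or DAC+EPZ 2 (-0.47).

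RET, the receptor of the GDNF family, rose after EPZ in Be(2)-C, after DAC in IMR5-75 and after both drugs in each line. Be(2)-C had 130.5 and 106.6 CPM after DAC, 298.7 and 207.5 CPM after EPZ and 188.7 and 225.5 CPM after DAC+EPZ, against 127.9 and 130.0 CPM in DMSO. All libraries with EPZ lay above all libraries without it, and the DAC and DMSO libraries overlapped. RET rose by 0.97 ± 0.17 after EPZ (edgeR adjusted p = 0.000828) and by 0.68 ± 0.17 after DAC+EPZ (0.00625), while DAC gave -0.12 ± 0.17 (interval -0.48 to 0.24). The call under both drugs ended without DMSO 1 (0.66, adjusted p = 0.0647) or DAC+EPZ 2 (0.55, adjusted p = 0.0881).

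In IMR5-75 RET was a low gene, with 5.45 and 6.71 CPM after DAC, 4.34 and 3.62 CPM after EPZ and 9.76 and 6.39 CPM after DAC+EPZ, against 2.21 and 1.09 CPM in DMSO. Those DMSO levels were 30 and 13 counts, so the base of the fold changes is thin. No treated library overlapped DMSO. RET rose by 1.84 ± 0.33 after DAC (edgeR adjusted p = 0.000187) and by 2.25 ± 0.31 after DAC+EPZ (5.89e-06). After EPZ the change of 1.24 ± 0.35 had an adjusted p of 0.0770, and it was called by DESeq2 (adjusted p = 0.00894), without the filter on low counts (adjusted p = 0.000889) and without DMSO 1 (1.85, adjusted p = 0.0457). Its highest value in IMR5-75, 9.76 CPM, was below the lowest in Be(2)-C, 106.6 CPM.

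The response of RET to DAC differed between the lines by -1.96 ± 0.37 (edgeR adjusted p = 0.00157) and that to DAC+EPZ by -1.57 ± 0.37 (0.00679), Be(2)-C minus IMR5-75. The response to EPZ differed by -0.26 ± 0.40 (interval -1.09 to 0.56). The DAC+EPZ difference was -1.17 with an adjusted p of 0.0767 without IMR5-75 DMSO 2. Among all members 2 were called for a difference between lines after DAC (6.19% of all tested genes), 0 after EPZ (1.19%, with 1 at an unadjusted p under 0.05 and 0 in DESeq2) and 2 after DAC+EPZ (11.1%). In each called case the members were PDGFRA, higher in the response of Be(2)-C, and RET, lower in it.

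**Figure D2:**
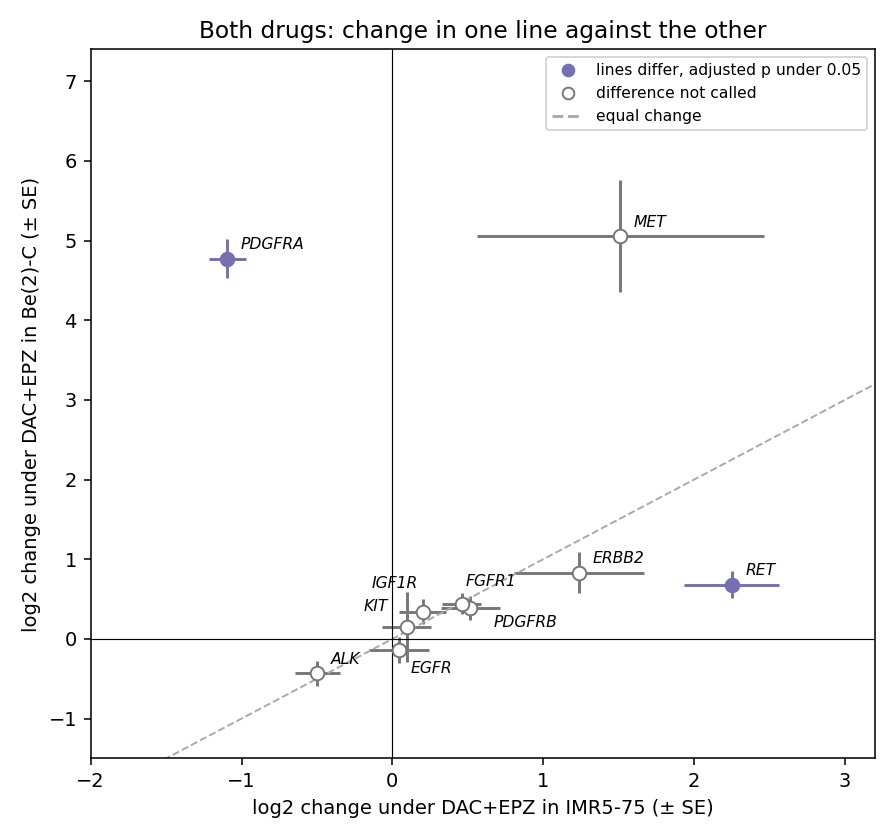
Log2 change of each receptor gene under both drugs in Be(2)-C (vertical axis) against IMR5-75 (horizontal axis), with bars of 1 SE and a dashed line of equal change. PDGFRA (4.78 in Be(2)-C and -1.09 in IMR5-75) and RET (0.68 and 2.25) are the members whose difference between lines was called. MET lies off the line, but its difference was not called.

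MET, the receptor of hepatocyte growth factor, stayed a low gene, with its highest counts in Be(2)-C after both drugs. Its counts were 11 and 9 after DAC, 3 and 3 after EPZ and 40 and 30 after DAC+EPZ, against 2 and 0 in DMSO. In IMR5-75 they were 4 and 3, 5 and 0, and 4 and 6, against 2 and 1 in DMSO. The combined-drug libraries of Be(2)-C, at 3.56 and 3.15 CPM, were the highest of the 16.

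Since DMSO gave 2 counts, MET is given as a ratio of scaled counts with an exact binomial 95% interval, which covers counting error only. The ratio was 36.9 after DAC+EPZ in Be(2)-C (9.86 to 311) and 9.55 after DAC (2.32 to 84.3). MET passed the filter on low counts only through Be(2)-C DAC+EPZ, so a call of that group against others is no independent support. The fitted change after DAC+EPZ was 5.05 ± 0.70 (edgeR adjusted p = 1.87e-05), and 4.14 to 8.36 over the alternatives. That after DAC (adjusted p = 0.0406) was lost in DESeq2 (0.0899) and without DMSO 1 (0.0797), DMSO 2 (0.259), DAC 1 (0.150) or DAC 2 (0.0976). Both drugs gave 3.87 times the MET of DAC alone (2.33 to 6.71) and 12.3 times that of EPZ alone (5.36 to 34.5). The first of these calls, with an adjusted p of 0.0131, ended in DESeq2 (0.0891) and without any single 1 of its 4 libraries (0.0642 to 0.102). In IMR5-75 the ratio after DAC+EPZ was 3.01 (0.775 to 17.0), and the difference between lines, 3.54 ± 1.57, had an adjusted p of 0.168. Epithelial markers summed to 22.2 to 25.7 CPM after DAC, 8.70 to 9.44 CPM after EPZ and 29.1 to 32.4 CPM after DAC+EPZ in Be(2)-C, against 5.79 to 8.61 CPM in DMSO, with all 6 at a count above 0, and their part in the MET result was not tested.

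FGFR1, a fibroblast growth factor receptor, rose slightly under both drugs in each line. Be(2)-C had 69.9 and 73.9 CPM after DAC+EPZ, against 46.6 and 59.2 CPM in DMSO, a rise of 0.44 ± 0.13 (edgeR adjusted p = 0.0176). In IMR5-75 it had 84.4 and 84.2 CPM, against 59.5 and 63.1 CPM in DMSO, a rise of 0.46 ± 0.13 (0.00557). The IMR5-75 call held under every alternative. That of Be(2)-C ended without DMSO 1 (0.27, adjusted p = 0.296), DAC+EPZ 1 (0.48, 0.0510) or DAC+EPZ 2 (0.40, 0.104). Neither drug alone gave a called change, and FGFR1 shares 53 exon bases with an antisense gene model.

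ERBB2, the member of the EGF receptor family with no known ligand of its own, also rose under both drugs. Its level in Be(2)-C was 5.92 and 7.13 CPM after DAC, 7.26 and 7.31 CPM after EPZ and 8.28 and 10.3 CPM after DAC+EPZ, against 5.71 and 4.68 CPM in DMSO. The combined change of 0.83 ± 0.26 had an edgeR adjusted p of 0.0239, and it ended without DMSO 1 (0.97), DMSO 2 (0.69) or DAC+EPZ 2 (0.67). In IMR5-75 it had 1.25 and 2.27 CPM after DAC+EPZ, against 0.811 and 0.673 CPM in DMSO. These are 17 and 33 counts, against 11 and 8, so the base of the fold change is thin. Libraries with 1 drug had 0.991 and 0.546 CPM after DAC and 1.025 and 0.393 CPM after EPZ. The call of the combined change, 1.24 ± 0.43 (edgeR adjusted p = 0.0232), ended without DMSO 1 (1.38), DMSO 2 (1.103) or DAC+EPZ 2 (0.78) and with IMR5-75 fitted alone. ERBB2 exons overlap those of PGAP3 on the opposite strand over 194 bases, and whether the counting used strand is not given.

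EGFR and IGF1R, the receptors of EGF-type and insulin-like growth factors, were not called under any treatment in either line. EGFR had 51.8 to 77.8 CPM in Be(2)-C and 8.66 to 13.2 CPM in IMR5-75, and the DMSO libraries of each line lay inside that range. Its 95% intervals against DMSO ran from -0.52 to 0.31 over the treatments of Be(2)-C and from -0.61 to 0.68 over those of IMR5-75. IGF1R had 90.2 to 138.2 CPM in Be(2)-C and 53.8 to 75.9 CPM in IMR5-75. Under DAC+EPZ in Be(2)-C its change was 0.34 ± 0.16, with a 95% interval from 0.02 to 0.67 and an edgeR adjusted p of 0.116. Its intervals reached from -0.09 to 0.67 and from -0.47 to 0.53, and without DAC+EPZ 1 its combined-drug change in Be(2)-C was called (0.55, adjusted p = 0.0318).

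**Figure D3:**
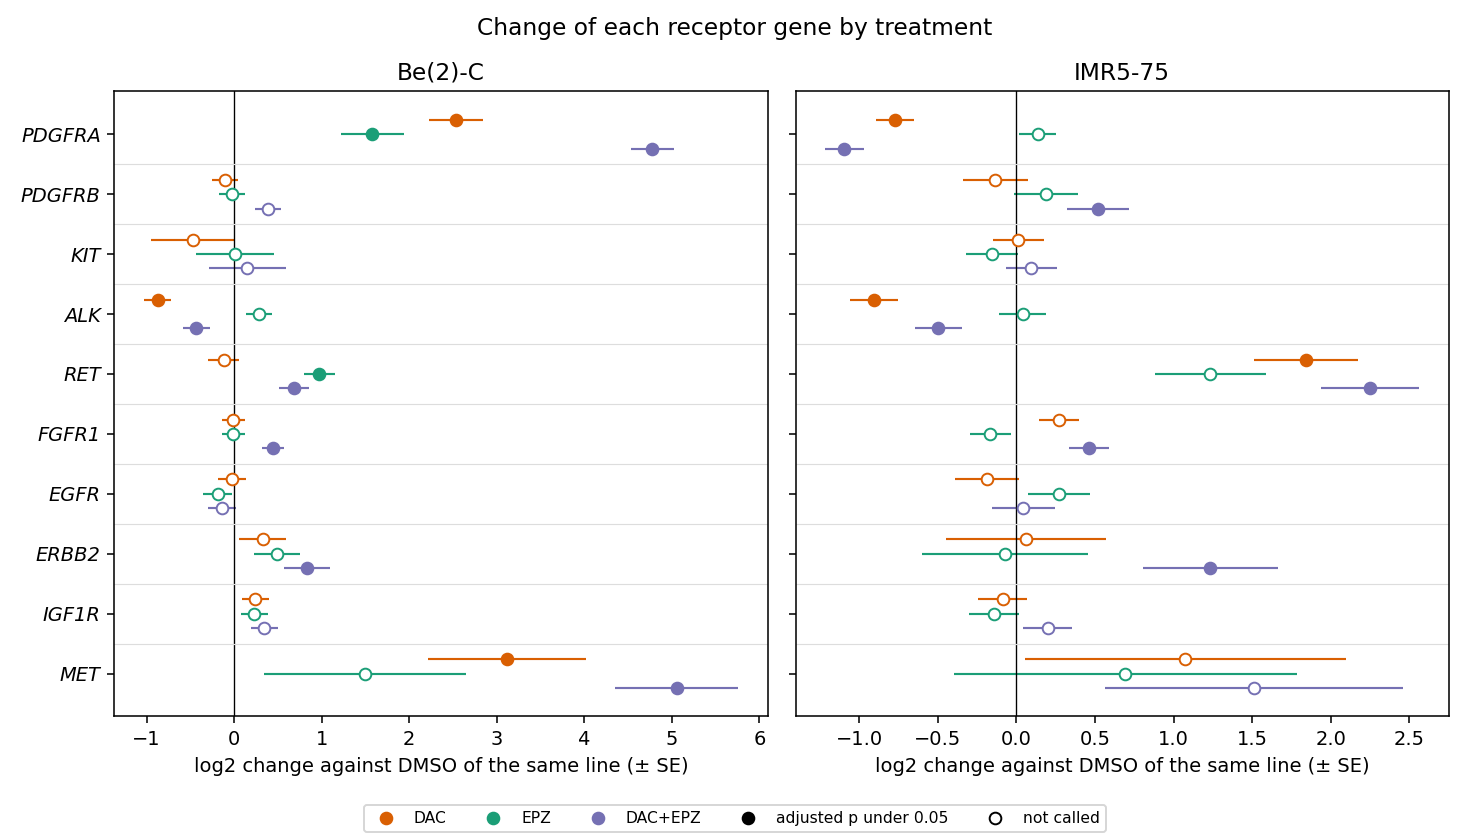
Log2 change of each receptor gene against DMSO of its own line, with bars of 1 SE, coloured by treatment; filled points have an adjusted p under 0.05. ALK lies left of 0 after DAC in both lines, RET lies right of 0 after EPZ in Be(2)-C and after DAC in IMR5-75, and KIT, EGFR and IGF1R have no filled point.

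Adding EPZ to DAC in IMR5-75 changed 0 members (1.94% of all tested genes), with 4 at an unadjusted p under 0.05 and 0 in DESeq2. Those 4 were PDGFRA (-0.32 ± 0.12), PDGFRB (0.65 ± 0.20), ALK (0.41 ± 0.15) and ERBB2 (1.18 ± 0.42), with adjusted p between 0.0999 and 0.208. Adding DAC to EPZ changed 5 members (37.6%). PDGFRA fell by 1.23 ± 0.12 and ALK by 0.54 ± 0.15, while RET rose by 1.01 ± 0.27, FGFR1 by 0.63 ± 0.13 and ERBB2 by 1.31 ± 0.44 (edgeR adjusted p from 1.15e-07 to 0.0222). That count was 3, 3 and 2 without DAC+EPZ 1, DAC+EPZ 2 and EPZ 2. The ALK call ended without any single 1 of the 4 libraries (-0.47 to -0.52, adjusted p 0.0513 to 0.0682) and that of RET without DAC+EPZ 1 (0.73, 0.0852) or EPZ 2 (0.93, 0.0532). That of ERBB2 ended without DAC+EPZ 2 (0.84) or EPZ 2 (0.82) and with IMR5-75 fitted alone (adjusted p = 0.0566). The interaction in IMR5-75 was called for 0 members (0.0251%), with 1 at an unadjusted p under 0.05, PDGFRA at -0.46 ± 0.17, and 0 in DESeq2.

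More ligands of the 10 receptors were called in IMR5-75 than in Be(2)-C after DAC and after DAC+EPZ, and not after EPZ. Of 45 ligand genes 24 were tested. In IMR5-75 9 were higher and 1 lower after DAC (background 19.9% higher and 13.8% lower) and 10 higher and 1 lower after DAC+EPZ (25.7% and 20.4%). Be(2)-C had 0 higher after DAC (3.73%) and 1 after DAC+EPZ (13.2%). After EPZ 2 were higher in Be(2)-C (5.35%) and 0 in IMR5-75 (1.63%), where DESeq2 called 1 and the fit with no filter on low counts 3. The medians in IMR5-75 were 0.70 and 0.86, against 0.01 and 0.03 over all tested genes. The counts of higher ligands after DAC and DAC+EPZ in IMR5-75 stayed within 1.5 times under every alternative. The lower count was 0 after DAC without DMSO 1, DAC 1 or DAC 2, and 0 after DAC+EPZ without DAC+EPZ 1 or DAC+EPZ 2. The Be(2)-C count after DAC+EPZ was 0 without any single 1 of its 4 libraries, and 2 in DESeq2, with no filter or with the line fitted alone. The EPZ count of IMR5-75 was 1 without DMSO 1. The response differed between lines for NRG1 after DAC (-0.94 ± 0.26, edgeR adjusted p = 0.0291). It also did for NRG2 (-1.84 ± 0.43) and FGF14 (-2.63 ± 0.75) after DAC+EPZ, and each response was the lower one in Be(2)-C. FGF14 had 2 counts over the DMSO group of IMR5-75 and 21 after DAC+EPZ, so the base of its difference is thin. In Be(2)-C it had 873 and 1136 counts in those groups. The numbers of ligands called for this difference depended on the processing. The 1 lower after DAC became 3 with DESeq2 size factors, 4 with no filter and 2 in the DESeq2 test. It was 0 without Be(2)-C DMSO 1, DMSO 2 or DAC 2 or IMR5-75 DMSO 2, and 2 without IMR5-75 DMSO 1 or DAC 2. The 2 lower and 0 higher after DAC+EPZ became 4 and 1 with no filter, and 0 and 1 without IMR5-75 DMSO 2.

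KITLG, the ligand of KIT, had 45.3 ± 11.3 CPM after DAC and 44.5 ± 7.88 CPM after DAC+EPZ in IMR5-75, against 17.8 ± 2.68 CPM in DMSO (SD, n = 2 each), and rose by 1.34 ± 0.20 after DAC (edgeR adjusted p = 2.02e-05). GDNF, the ligand of RET, had 4.06 ± 0.668 CPM after DAC and 3.56 ± 0.466 CPM after both, against 1.41 ± 0.0909 CPM in DMSO, and rose by 1.52 and 1.32. TGFA and HBEGF, ligands of EGFR, rose as well, TGFA to 1.73 ± 0.537 CPM after DAC against 4 counts over the DMSO group, and HBEGF by 1.32. NRG1, a neuregulin that signals through ERBB2 with its partner receptors, rose by 1.06 ± 0.20 after DAC. PDGFC, a ligand of PDGFRA, rose by 0.65 after DAC in the line where PDGFRA fell. IGF2, the 1 lower ligand, had 0 counts in IMR5-75 after DAC and after both, against 13 counts in DMSO that all came from 1 of its 2 libraries. HGF, the ligand of MET, rose in Be(2)-C after EPZ, with 96.5 ± 11.9 CPM against 65.7 ± 1.51 CPM in DMSO (0.56 ± 0.16, adjusted p = 0.0269). HGF and FGF14 were the 2 ligands called after EPZ in Be(2)-C, and that count was 0 without DMSO 1, DMSO 2 or EPZ 2. FGF14, listed with the fibroblast growth factors although it is known to act inside cells on sodium channels, was the ligand-list gene that rose after DAC+EPZ in Be(2)-C (0.46 ± 0.15).

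Co-receptors and extracellular modulators shape what the receptors bind. Of 27 tested, 13 were higher and 3 lower in Be(2)-C after DAC+EPZ (background 13.2% and 10.4%), and 14 higher and 4 lower in IMR5-75 (25.7% and 20.4%). The higher count of Be(2)-C was 7, 7 and 6 without DMSO 1, DMSO 2 and DAC+EPZ 2, and the lower count was 1 without any single 1 of the 4 libraries. In IMR5-75 the lower count was 2 without DMSO 2, DAC+EPZ 1 or DAC+EPZ 2. GFRA1, the co-receptor through which GDNF binds RET, had 210.7 ± 14.2 CPM after DAC, 135.7 ± 6.04 CPM after EPZ and 281.0 ± 23.96 CPM after DAC+EPZ in IMR5-75, against 84.0 ± 5.06 CPM in DMSO (1.74 ± 0.14 after both, edgeR adjusted p = 2.48e-09). Be(2)-C had at most 8 counts of it in a group. GFRA2, the co-receptor for neurturin, fell in IMR5-75 by 0.98 after DAC and by 1.03 after DAC+EPZ.

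IGFBP3, IGFBP5 and IGFBP7, secreted insulin-like growth factor binding proteins or relatives of them, were the called genes of that list with the smallest adjusted p after DAC+EPZ in Be(2)-C. IGFBP3 had 52.1 ± 1.199 CPM after DAC+EPZ, against 15.7 ± 3.18 CPM in DMSO, and rose by 1.74 ± 0.18 (edgeR adjusted p = 7.16e-07), IGFBP5 by 1.30 ± 0.13 and IGFBP7 by 1.31 ± 0.14. In IMR5-75 IGFBP3 rose by 2.64 ± 0.19 under both drugs, and the difference between lines was -0.90 ± 0.26 (adjusted p = 0.0291). GPC3, a glypican that binds growth factors at the cell surface, rose by 2.09 ± 0.16 and NRP1, a neuropilin, by 1.42 in IMR5-75.

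Of 43 other receptor tyrosine kinases tested, 12 were higher and 2 lower in Be(2)-C after DAC+EPZ (background 13.2% and 10.4%) and 24 higher and 5 lower in IMR5-75 (25.7% and 20.4%). The lower count in Be(2)-C was 1 without DAC+EPZ 2 and 0 without any other of its 4 libraries, and it was 1, 2 and 3 in IMR5-75 without DMSO 2, DAC+EPZ 1 and DAC+EPZ 2, and 3 in DESeq2. INSRR, an insulin receptor relative, rose by 2.18 ± 0.23 in Be(2)-C (edgeR adjusted p = 6.92e-07) and by 2.78 ± 0.29 in IMR5-75 (1.45e-07). NTRK3, the neurotrophin-3 receptor, rose by 3.95 ± 0.45 in Be(2)-C, where it had 106 counts over the DAC+EPZ group and 7 over the DMSO group. EPHA2, an ephrin receptor, had 42.9 ± 0.774 CPM after both drugs in IMR5-75, against 9.94 ± 0.740 CPM in DMSO.

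**Figure D4:**
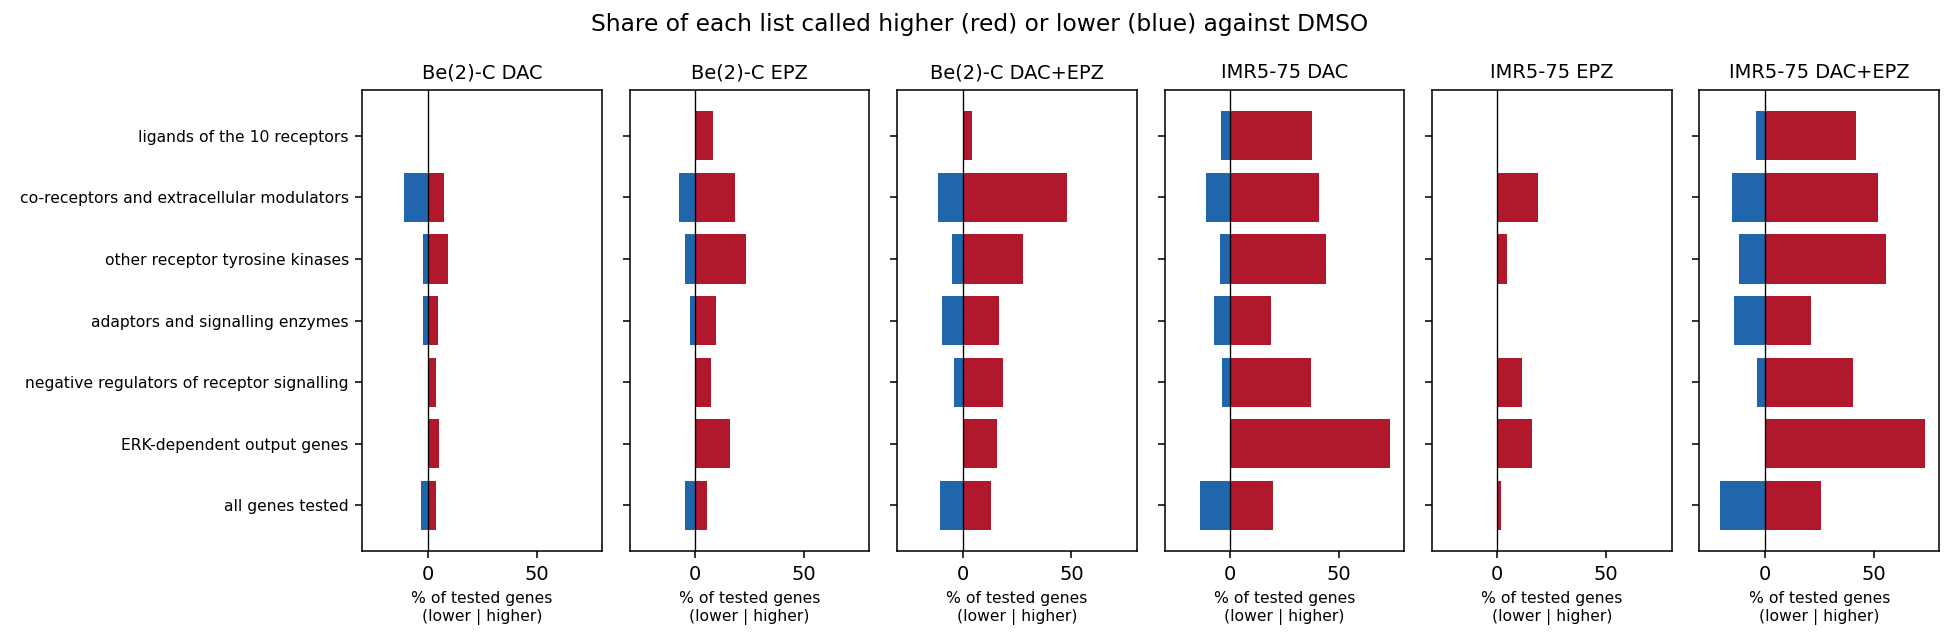
Percent of the tested genes of each pathway list that were called higher (right of 0) or lower (left of 0) against DMSO, by line and treatment, with all 15967 tested genes in the bottom row. The longest bars are those of the ERK-dependent output genes in IMR5-75, where 14 of 19 were higher after DAC and after both drugs.

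ERK-dependent genes responded differently in the lines. Of 19 tested ERK-dependent output genes, 14 were higher and 0 lower in IMR5-75 after DAC (background 19.9% and 13.8%), and 14 and 0 after DAC+EPZ (25.7% and 20.4%), with medians of 1.16 and 1.23. These counts stayed within 1.5 times under every alternative. Be(2)-C had 1 higher after DAC (3.73%), 3 after EPZ (5.35%) and 3 after DAC+EPZ (13.2%). The DAC count was 0 without DMSO 1, DMSO 2 or DAC 2, and 2 with DESeq2 size factors or no filter. The EPZ count was 1 without DMSO 1, DMSO 2 or EPZ 1, and that after DAC+EPZ was 1 without DMSO 1 or DMSO 2. In the test of the difference itself, 9 of the 19 were lower in the response of Be(2)-C and 0 higher after DAC (background 5.13% lower and 1.06% higher), and likewise 9 and 0 after DAC+EPZ (6.71% and 4.35%). Already in DMSO, 13 of the 19 were higher and 4 lower in Be(2)-C than in IMR5-75 (background 31.2% and 32%). The median difference there was 1.86, and the part of this starting level in the responses was not tested. This list was checked because ERK lies below all 10 receptors, and a count of RNAs does not measure receptor or ERK activity. Markers of other cell types moved in the same IMR5-75 libraries, and their part in this result was not tested. The 8 Schwann and glial markers summed to 23.7 to 25.4 CPM after DAC, 14.1 to 15.4 CPM after EPZ and 33.9 to 34.1 CPM after both drugs, against 10.54 to 10.77 CPM in DMSO, where CDH19 alone was at 0. The 4 endothelial markers, all with counts in every group of that line, summed to 3.40 to 4.45 CPM after DAC and 3.52 to 5.09 CPM after both drugs, against 1.03 to 1.09 CPM in DMSO.

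DUSP6, a phosphatase of ERK, had 24.6 ± 0.265 CPM after DAC, 6.62 ± 0.344 CPM after EPZ and 25.2 ± 1.94 CPM after DAC+EPZ in IMR5-75, against 3.45 ± 0.123 CPM in DMSO. It rose by 2.83 ± 0.21 after DAC (edgeR adjusted p = 1.27e-09). The same gene in Be(2)-C had 5.04 ± 1.65, 8.20 ± 0.175 and 10.8 ± 1.68 CPM, against 4.06 ± 0.876 CPM in DMSO, and rose by 1.42 ± 0.22 after DAC+EPZ. The DAC response differed between lines by -2.53 ± 0.32 (adjusted p = 1.47e-05). DUSP4, a related phosphatase, had 55.9 ± 3.11 CPM after DAC in IMR5-75, against 15.5 ± 2.56 CPM in DMSO, and ETV5, an ETS transcription factor, had 39.8 ± 0.890 CPM after DAC+EPZ, against 9.47 ± 0.771 CPM in DMSO. Both were high in Be(2)-C already in DMSO, DUSP4 at 157.3 ± 4.55 CPM and ETV5 at 63.5 ± 2.46 CPM. SPRY4, a brake on receptor signalling, had 68.0 ± 10.3 CPM after DAC+EPZ in Be(2)-C, against 45.8 ± 1.00 CPM in DMSO, and rose by 0.57 ± 0.15.

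**Figure D5:**
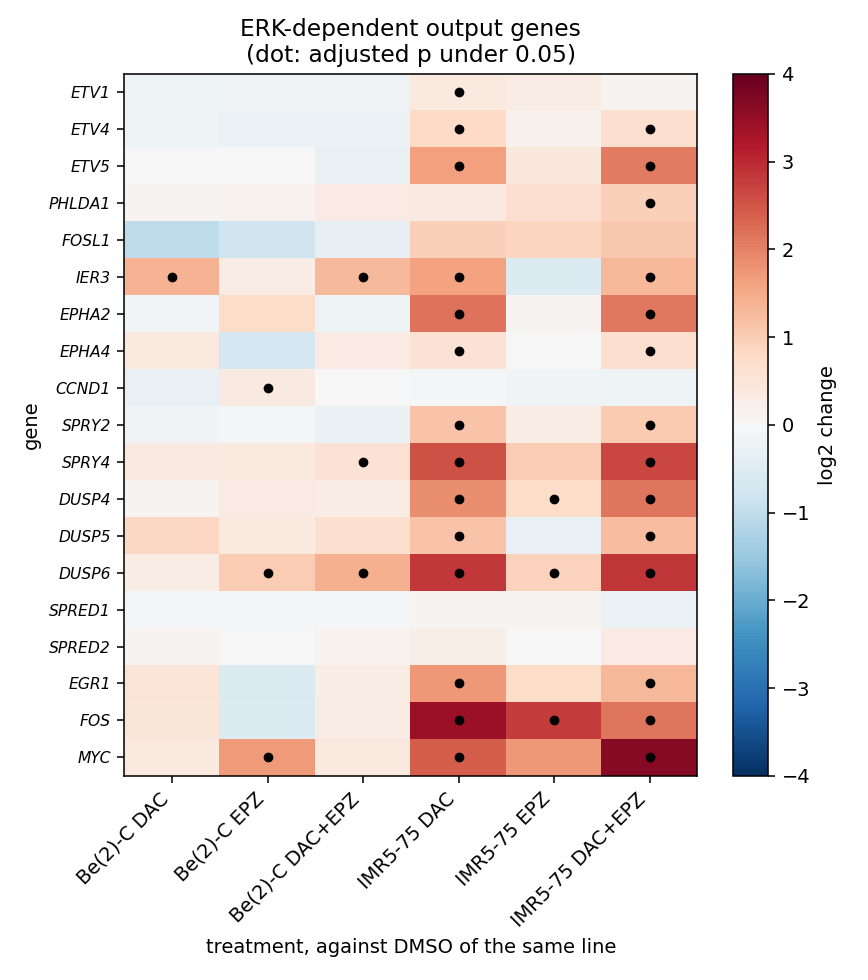
Log2 change of 19 ERK-dependent output genes (rows) under each treatment against DMSO of the same line (columns), with a black dot where the adjusted p was under 0.05. The 3 Be(2)-C columns hold few dots, while 14 genes are dotted after DAC and 14 after both drugs in IMR5-75.

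The genes whose levels followed each member most closely were found by Pearson's r of log2 CPM over the 16 libraries after subtracting the mean of each line. For PDGFRA they were KCNK2 (0.975), CD24 (0.942) and NREP (0.942), although KCNK2 was nearly absent from Be(2)-C, with group means of 0 to 0.335 CPM. CD24 had 268.1 ± 5.82 CPM after DAC+EPZ in Be(2)-C, against 104.6 ± 8.38 CPM in DMSO, and 574.0 ± 4.29 CPM in IMR5-75, against 696.1 ± 57.2 CPM in DMSO, the same opposed directions of means. For ALK they were GRAMD4 (0.943), CCNE1 (0.933), which encodes cyclin E1, and AGAP1 (0.926). For RET they were PDLIM5 (0.955), LOC100287482 (0.943) and RBFOX1 (0.937), and for MET LAYN (0.954), MXRA8 (0.933) and SPARC (0.932), a matrix protein. FGFR1 went with MGC72080 (0.962), DHRS1 (0.938) and REC8 (0.934), PDGFRB with CLEC11A (0.859) and RTL1 (0.812), and ERBB2 with CALY (0.868), BBS1 (0.846) and HLA-C (0.835). Among the members themselves the closest pairs were PDGFRB with ERBB2 (0.790) and PDGFRA with MET (0.788). These values describe 16 libraries that share treatments and scaling, and they carry no test.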

How the data were processed

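RNA of 16 cell-line libraries was sequenced. Per the labels' protocols, libraries came from rRNA-depleted total RNA by a directional kit and were read over 50 bases from 1 end. The authors deposited raw counts per gene symbol, and each of the 16 columns matched 1 sample's title. The submitters' processing notes list build hg19 and, as tools, HTSeq 0.5.3p9, TopHat2 2.0.5 and an unversioned DESeq2. Which annotation was used, and whether strand was counted, was not given in the sources used here; reads of overlapping genes are uncertain.

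The deposited counts entered edgeR 4.0.16 (R 4.3.3): filterByExpr (15967 genes kept, 1191 of 23459 with 0 counts everywhere), TMM factors (0.928 to 1.12) and a quasi-likelihood fit of 8 group means with 8 residual degrees of freedom. The 16 comparisons were each treatment against DMSO, both drugs against each alone, the interaction in each line, differences of response between lines, and the DMSO lines. P-values were adjusted by Benjamini-Hochberg over all tested genes. SE is the change divided by the root of F. Ratios over few counts have exact binomial 95% intervals.

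The 10 members, the 6 pathway lists and 6 marker lists (264 genes, 2 matched by an older name) and the tests were chosen with earlier results of these data known. All members are described. From each list the 3 called genes with the smallest adjusted p per treatment could be named, with direct ligands and co-receptors, and for each called member the 3 most alike genes (prior count 2, mean log2 CPM not under 1). Some genes that the rule names are not reported here. Exon lengths and overlaps came from GENCODE v29, promoters from RefSeq GRCh38.p14 (9 of 10 members matched), and neither build is that of the counts. Replicate numbers did not pair the libraries in a common direction, though some groups shared deviations. Alternatives were DESeq2 size factors, no filter, a replicate block, each line fitted alone, the DESeq2 1.42.0 Wald test, and leaving out each library, when the lone library of a group is assumed to vary like the others. The fit was checked on simulated counts. Replicates differed by more than counting noise (chi-square per degree of freedom 2.78 to 13.9), so none was a repeated library.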

Additional observations from a re-analysis of the deposited data

Results flagged for a closer look

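PDGFRA and RET each changed differently in the lines under the same treatment, by a test of the difference itself (edgeR, Benjamini-Hochberg over all tested genes). For PDGFRA the response to DAC was 3.3 higher on the log2 scale in Be(2)-C than in IMR5-75 and that to DAC+EPZ 5.87 higher. It rose in 2 of 2 libraries of each of these groups in Be(2)-C and fell in 2 of 2 in IMR5-75. For RET the difference was -1.96 under DAC and -1.57 under DAC+EPZ, Be(2)-C minus IMR5-75. The last had an adjusted p of 0.0767 without IMR5-75 DMSO 2, whose RET level rests on 13 counts. Both genes started from very different levels in DMSO, 0.684 CPM in Be(2)-C and 141.5 CPM in IMR5-75 for PDGFRA, and 128.9 CPM in Be(2)-C and 1.65 CPM in IMR5-75 for RET, and the part of the starting level was not tested.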

How the results depend on the processing

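Of 43 called changes of single members, 26 were called under every alternative run, 17 lost the call under at least 1, and 0 changed direction. The counts of called members changed by more than 1.5 times as follows. With no filter on low counts 1 member was called after EPZ in IMR5-75 (RET), 1 for both drugs against DAC in IMR5-75 (PDGFRB) and 1 for the difference of the EPZ response between lines (PDGFRA), where the report has 0. The DESeq2 Wald test also called 1 after EPZ in IMR5-75. Leaving out each library in turn, the count was 1 to 2 after EPZ and 2 to 5 after DAC+EPZ in Be(2)-C, 1 to 2 for both drugs against DAC in Be(2)-C, 0 to 1 after EPZ and 3 to 4 after DAC+EPZ in IMR5-75, 2 to 6 for both drugs against EPZ in IMR5-75, and 1 to 2 for the DAC+EPZ response between lines. The cause was not tested.

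With a replicate block, ALK under both drugs against DMSO (-0.43, adjusted p = 0.0567) and FGFR1 for both drugs against DAC (0.45, adjusted p = 0.0626), both in Be(2)-C, lost their calls, and the block ended no other call of a member. Correlations of same-numbered deviations ran from -0.41 to 0.40 over 28 pairs of groups (median -0.02, 10 over 0.1). Libraries of the same number thus had no common direction over the groups. Some pairs of groups did share deviations, of either sign. They were 0.40 for Be(2)-C EPZ with IMR5-75 DAC and -0.41 for IMR5-75 DAC with IMR5-75 DAC+EPZ, and their source was not tested. FGFR1 for both drugs against DAC in Be(2)-C also lost its call with each line fitted alone (0.44, edgeR adjusted p = 0.0735). Scaling by total counts alone would shift the median of all genes by up to 0.24 (IMR5-75, both drugs against DMSO), against 0.03 with TMM and 0.06 with DESeq2 size factors. With 2 libraries a group and down to 2 counts in DMSO, MET is limited by depth. The counts of list genes differing between lines were recomputed under alternatives chosen after seeing the data.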

Other observations

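Genes of the signalling layer below the receptors were measured as well. Of 42 tested adaptors and signalling enzymes, 7 were higher and 4 lower in Be(2)-C after DAC+EPZ (13.2% and 10.4% of all tested genes), and 9 higher and 6 lower in IMR5-75 (25.7% and 20.4%), so these counts are close to or below the background. The lower count in Be(2)-C was 0 without DMSO 1 or DAC+EPZ 1, and 2 without DMSO 2 or DAC+EPZ 2. SHC2, an adaptor of neurons, had 9.14 ± 3.10 CPM after DAC+EPZ in Be(2)-C, against 1.55 ± 0.143 CPM in DMSO, and rose by 2.54 ± 0.32 (edgeR adjusted p = 5.87e-06). YES1, a SRC-family kinase, rose in Be(2)-C by 1.94 ± 0.28, from 29 counts over the DMSO group, and had 198.2 ± 20.1 CPM in IMR5-75 after both drugs, against 216.9 ± 18.5 CPM in DMSO. PIK3CD, a catalytic PI3-kinase subunit, had 10.3 ± 0.729 CPM after both drugs in IMR5-75, against 2.18 ± 0.352 CPM in DMSO.

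Of 27 tested negative regulators of receptor signalling, some of which are also in the ERK list, 5 were higher and 1 lower in Be(2)-C after DAC+EPZ (13.2% and 10.4% of all tested genes), and 11 higher and 1 lower in IMR5-75 (25.7% and 20.4%). In Be(2)-C the higher count was 3 without DMSO 1 or DMSO 2 and the lower was 0 without any single 1 of the 4 libraries, in DESeq2 or with a replicate block. In IMR5-75 the lower count was 0 without DMSO 2 or DAC+EPZ 1, 2 with no filter on low counts and 3 with the line fitted alone. INPP5D, a lipid phosphatase better known from blood cells, had 10.3 ± 0.424 CPM after both drugs in IMR5-75, against 0.900 ± 0.0829 CPM in DMSO, and rose by 3.50 ± 0.30 (edgeR adjusted p = 9.95e-09). Haematopoietic markers summed to 9.69 to 10.2 CPM after both drugs and 4.88 to 4.94 CPM in DMSO in IMR5-75, where CD3E and LYZ were at 0 in DMSO, and their part was not tested. Schwann and glial markers summed to 33.9 to 34.1 CPM after both drugs and 10.54 to 10.77 CPM in DMSO in IMR5-75, and endothelial markers to 3.52 to 5.09 CPM and 1.03 to 1.09 CPM. SOCS2, a suppressor of cytokine signalling, rose in Be(2)-C by 1.53 ± 0.22.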
